A study of Homo sapiens with 6 samples.

Results

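The genes described here are CD36 and 6 other genes of lipid uptake (SCARB1, VLDLR, LRP8, LPL, FABP3 and FABP5), read in RNA-seq libraries of TC71, an established Ewing sarcoma (EWS) cell line. The 7 genes were picked by symbol from a count table of 60676 genes, and the set was chosen on the difference of CD36 itself between the libraries compared below. Their differences in that comparison are therefore given as a description, with no test. Of the 7 genes, 6 had at least 10 counts in at least 3 libraries and were among the 16785 genes carried into the fit, and LPL was not. CD36 reached this minimum in 2 control libraries and all 3 knockdown libraries, so that it was in the fit only through the group where it was high.

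The 3 control libraries came from TC71 cells carrying a doxycycline (Dox) inducible non-targeting shRNA (shNTC+Dox), and the 3 knockdown libraries came from TC71 cells carrying a Dox inducible shRNA against EHD1 (shEHD1+Dox). EHD1 is an ATPase of the endocytic recycling pathway, which returns internalized membrane proteins to the cell surface. Both groups received 0.5 µg/ml Dox for 3 days, so the drug and the induction of a hairpin were shared by control and knockdown. The lines were puromycin-selected pools made with a lentiviral vector that also expresses GFP. The labels do not name the hairpin sequence used, and do not say whether the 3 libraries of a group came from separate cultures, so the p-values below measure only the spread between these samples. The question put to the data is how the RNA of the lipid uptake genes differed when EHD1 was depleted.

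Cells take up lipid by several routes. CD36 is a surface scavenger receptor that binds long-chain fatty acids, oxidized lipoproteins and thrombospondins, and is known from adipocytes, muscle, macrophages, platelets and the endothelium of small vessels. SCARB1 belongs to the same family and takes cholesteryl esters from high-density lipoprotein. VLDLR and LRP8 are related lipoprotein receptors that bind apolipoprotein E particles and serve as receptors of the signalling protein reelin. LPL is a secreted lipase that frees fatty acids from lipoprotein triglycerides, and the FABP proteins carry fatty acids inside the cell.

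The shNTC+Dox libraries held 26528902, 28203023 and 22711235 counts, and the shEHD1+Dox libraries held 28157184, 24150135 and 30582187 counts. Libraries of 1 group differed by more than counting noise, so none was counted as a repeat of another. Per degree of freedom, the chi-square of gene counts was 5.56 between shNTC+Dox libraries 1 and 2, but 25.6 and 27.1 between library 3 and these. In shEHD1+Dox it was 7.59 between libraries 1 and 3, and 18.0 and 16.8 between library 2 and these. Between groups it lay between 32.3 and 63.6. The library shNTC+Dox 3, and to a smaller degree shEHD1+Dox 2, thus stood apart from the others of their groups, and the log2 fold changes of the lipid uptake genes and the total counts of calls are also given without each of them.

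EHD1 itself (ENSG00000110047) had 713, 775 and 589 counts in the shNTC+Dox libraries and 215, 175 and 290 counts in the shEHD1+Dox libraries. As TMM-normalized CPM (counts scaled to a library of 1000000), the level was 27.2 ± 0.810 (SD, n = 3) in control cells and 8.02 ± 1.18 (SD, n = 3) after knockdown. The log2 fold change of EHD1 was -1.76 with a standard error (SE) of 0.12 (edgeR quasi-likelihood test, adjusted p = 1.35e-04), and the labels of all 6 libraries fitted the level of the targeted gene.

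CD36 (ENSG00000135218) lies on chromosome 7 at chr7:80369575-80679277 on the plus strand of hg38, and its annotated exons share 0 bases with other genes. It was barely above the floor of detection in control cells and was about an order of magnitude higher after EHD1 depletion. The counts were 10, 12 and 5 in shNTC+Dox libraries 1 to 3 and 115, 68 and 135 in shEHD1+Dox libraries 1 to 3. In CPM these were 0.380, 0.433 and 0.224 against 4.04, 2.78 and 4.36. The groups did not overlap, and the lowest knockdown library, shEHD1+Dox 2, was 6.41-fold above the highest control library. The mean level was 0.346 ± 0.109 CPM (SD, n = 3) in shNTC+Dox and 3.73 ± 0.836 CPM (SD, n = 3) in shEHD1+Dox.

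The log2 fold change of CD36 was 3.40 with an SE of 0.32, or 10.5-fold. Over all tested genes, 181 were called higher by at least 2-fold (96 without shEHD1+Dox 1, 101 without shEHD1+Dox 3, 144 without shEHD1+Dox 2 and 206 without shNTC+Dox 3). Since CD36 was chosen on this difference, no place among them is given for it. Leaving out shNTC+Dox 3, where CD36 had the fewest counts, gave a log2 fold change of 3.18, and leaving out shEHD1+Dox 2, where it was lowest among knockdown libraries, gave 3.57. The control level rests on 27 counts in all, which limits how exactly the ratio is known more than the knockdown level does. In bulk libraries such as these, more cells with CD36 RNA and more CD36 RNA per cell cannot be told apart.

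The starts from which CD36 is transcribed are shown because the gene has several of them, and the gene-level counts do not tell which was used. The RefSeq table of promoters (build GRCh38.p14) held 6 starts for CD36 and entries for VLDLR, LRP8 and FABP3. In the following stretches, written 5′ to 3′ on the plus strand, capitals mark a TATA box letter match (TATAAA, read here on the opposite strand). The first is the stretch before the start at base 80602207, at chr7:80601957-80602149 and 193 bases long, and the second is the stretch before the start at base 80638516, at chr7:80638266-80638515 and 250 bases long. Neither holds a base of an annotated exon, and both lie inside the span of the gene.
CD36 start 80602207: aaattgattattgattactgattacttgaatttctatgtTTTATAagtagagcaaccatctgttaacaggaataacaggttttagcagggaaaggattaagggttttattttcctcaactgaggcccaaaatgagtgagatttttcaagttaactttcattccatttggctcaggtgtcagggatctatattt
CD36 start 80638516: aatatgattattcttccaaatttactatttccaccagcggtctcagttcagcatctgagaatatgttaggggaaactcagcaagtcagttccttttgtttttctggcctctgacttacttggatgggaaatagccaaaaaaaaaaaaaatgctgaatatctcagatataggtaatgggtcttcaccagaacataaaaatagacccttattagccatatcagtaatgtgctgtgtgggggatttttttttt

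The sequence before all 6 CD36 starts was poor in G and C. The GC content of the 250 bases before each start was between 31.2% and 43.2%, with 1 or 2 CpG dinucleotides each, where the median of 35116 promoters in the table was 58% GC. The promoters of VLDLR, LRP8 and FABP3 were at 78.8%, 77.2% and 69.2% GC, with 41, 31 and 13 CpG dinucleotides. Annotated exons cover 220, 250 and 0 of the 250 bases in these 3 windows, and 0 to 197 of them in the CD36 windows. The GC, CpG and motif values of such windows thus include exon sequence. Short motifs were searched as exact letters on both strands of the 250 bases: the TATA box TATAAA (present in 10.7% of all promoters), the CCAAT box CCAAT (32.0%), the GC box GGGCGG (42.6%), the nuclear receptor site AGGTCA (12.1%), the E-box CACGTG (6.34%), the repeated ETS core GGAAGGAA (3.06%) and the cyclic AMP element TGACGTCA (1.65%). A direct repeat of AGGTCA with 1 base between, the form bound by PPAR and RXR pairs, was present in 6 promoters of the table (0.0171%), none of them of a lipid uptake gene. The match shown above begins 211 bases before its start, the start at base 80646249 had a TATA box 216 bases and a CCAAT box 153 bases before it, and the start at base 80624092 had the repeated ETS core at 197 bases before it. The other 3 CD36 windows and that of FABP3 held none of these letters, whereas LRP8 had 3 GC boxes and VLDLR had 2 that overlap. Such matches describe letters and do not show binding.

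**Figure D1:**
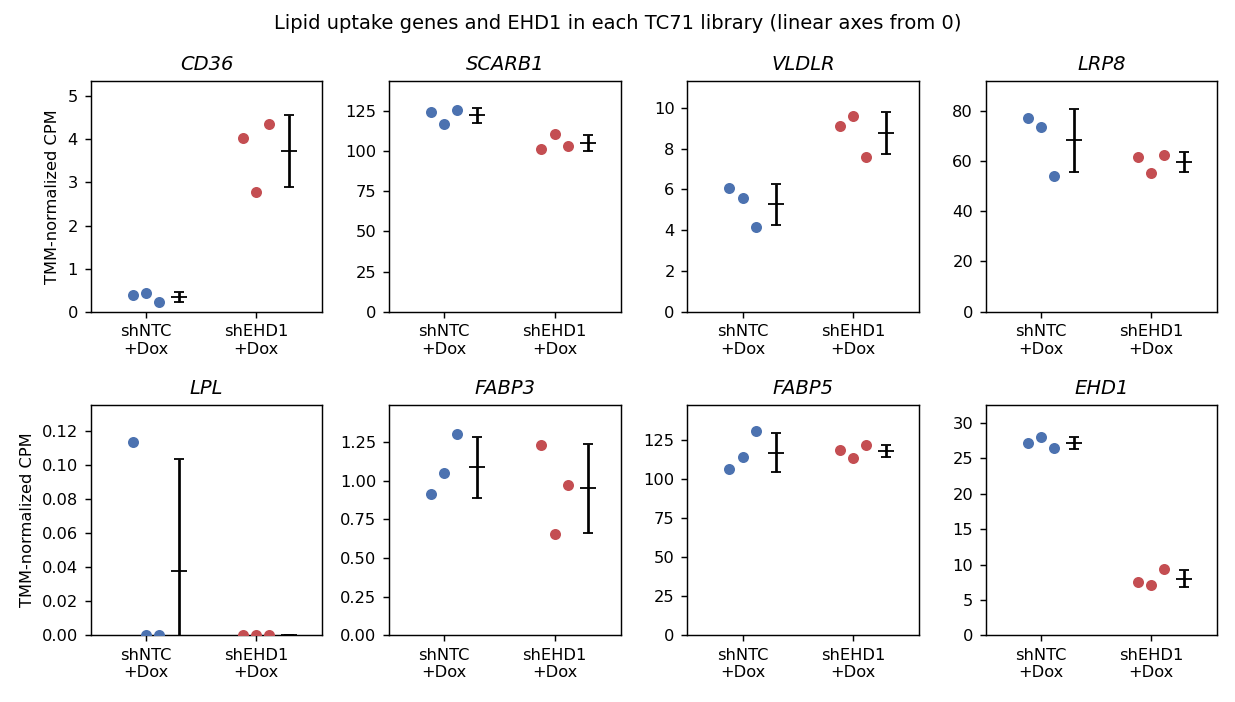
TMM-normalized CPM (linear axes from 0, 1 axis per gene) of the 7 lipid uptake genes and EHD1, with 1 point for each library and the mean ± SD (n = 3) of each group beside the points. The CD36 points of the shEHD1+Dox libraries lie at 2.78 to 4.36 CPM, above all shNTC+Dox points, while those of LRP8, FABP3 and FABP5 overlap between the groups.

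SCARB1 (ENSG00000073060, chr12:124776856-124882668, minus strand), a family relative of CD36, was expressed at far higher counts and differed little. Its counts were 3276, 3240 and 2801 in control libraries 1 to 3 and 2883, 2715 and 3188 in knockdown libraries 1 to 3. In CPM the levels were 124, 117 and 125 against 101, 111 and 103, so that every knockdown library was below every control library. The mean was 122 ± 4.60 CPM (SD, n = 3) in shNTC+Dox and 105 ± 5.19 CPM (SD, n = 3) in shEHD1+Dox, a log2 fold change of -0.22 with an SE of 0.07 (-0.20 without shNTC+Dox 3 and -0.26 without shEHD1+Dox 2). The direction of SCARB1 was thus opposite to that of CD36, with a difference much smaller in size. Of its annotated exon bases, 7.52% are shared with AC073593.2 on the other strand, which had at most 7 counts in a library. SCARB2, another gene of this family, went the same way as CD36, with a log2 fold change of 0.43 and an SE of 0.11. Its adjusted p was 0.0329 (edgeR quasi-likelihood test), and the call was lost in 4 of 12 alternative fits.

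VLDLR (ENSG00000147852, chr9:2621182-2660056, plus strand) was the other gene that was higher in every knockdown library. It had 160, 154 and 93 counts in shNTC+Dox and 260, 235 and 235 counts in shEHD1+Dox. The levels were 6.08, 5.56 and 4.16 CPM against 9.13, 9.61 and 7.59 CPM, with the lowest knockdown library 1.25-fold above the highest control library. The mean was 5.27 ± 0.991 CPM (SD, n = 3) in shNTC+Dox and 8.78 ± 1.05 CPM (SD, n = 3) in shEHD1+Dox. The log2 fold change was 0.73 with an SE of 0.18, or 1.66-fold, and it was 0.59 without shNTC+Dox 3, where VLDLR was lowest, and 0.66 without shEHD1+Dox 2. The exons of VLDLR share 8.24% of their bases with VLDLR-AS1 and AL450467.1 on the other strand, and the library kit does not keep strand. VLDLR-AS1 had 21, 7 and 7 counts in shNTC+Dox and 41, 15 and 14 counts in shEHD1+Dox (log2 fold change 0.87, SE 0.59, adjusted p = 0.351). These antisense counts were between 4.55% and 15.8% of those of VLDLR. Reads that fit both genes could be part of the VLDLR counts, and their share was not tested.

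LRP8 (ENSG00000157193, chr1:53242364-53328469, minus strand), the partner of VLDLR in reelin signalling, showed no such difference. Its counts were 2032, 2030 and 1206 in control libraries 1 to 3 and 1750, 1349 and 1931 in knockdown libraries 1 to 3. The levels were 77.2, 73.3 and 54.0 CPM against 61.5, 55.1 and 62.4 CPM, and the groups overlapped because shNTC+Dox 3 was below all knockdown libraries. The mean was 68.2 ± 12.4 CPM (SD, n = 3) in shNTC+Dox and 59.7 ± 3.94 CPM (SD, n = 3) in shEHD1+Dox, a log2 fold change of -0.19 with an SE of 0.13. Without shNTC+Dox 3 the log2 fold change of LRP8 was -0.34, and without shEHD1+Dox 2 it was -0.14. The library that stood apart was thus the lowest control library for CD36, VLDLR and LRP8 alike. The exons of LRP8 share 9.69% of their bases with genes on the other strand, among them LRP8-DT and MAGOH-DT. The part of reads that fit both strands in the LRP8 counts was not tested.

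LPL (ENSG00000175445, chr8:19901717-19967259, plus strand) had 3 counts in shNTC+Dox 1 and 0 in the other 5 libraries. A count of 0 allows up to 3 counts, which was 0.0969 to 0.134 CPM in these libraries, so LPL was at or under the floor in both groups and no fold change is given. Floors and SDs of this kind cover counting and library spread and not whether reads are independent molecules, since the reads carry no molecular identifiers.

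The fatty acid carriers differed in level but hardly between the groups. FABP3 (ENSG00000121769, chr1:31365253-31376850, minus strand), the carrier best known from heart and skeletal muscle, had 24, 29 and 29 counts in shNTC+Dox and 35, 16 and 30 counts in shEHD1+Dox. Its levels were 0.912, 1.05 and 1.30 CPM against 1.23, 0.654 and 0.969 CPM, and the groups overlapped. The means were 1.09 ± 0.196 CPM and 0.951 ± 0.288 CPM (SD, n = 3 each), a log2 fold change of -0.18 with an SE of 0.33. The sign of the FABP3 difference was not stable, since it was 0.02 without shEHD1+Dox 2 and -0.04 without shNTC+Dox 3.

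FABP5 (ENSG00000164687, chr8:81280536-81284777, plus strand), a carrier found in many epithelial and tumor cells, was among the most abundant of the 7 genes. It had 2796, 3145 and 2907 counts in shNTC+Dox and 3369, 2772 and 3754 counts in shEHD1+Dox. The levels were 106, 114 and 130 CPM against 118, 113 and 121 CPM, with all knockdown libraries inside the control range. The means were 117 ± 12.3 CPM and 118 ± 4.04 CPM (SD, n = 3 each), a log2 fold change of 0.01 with an SE of 0.08 (0.10 without shNTC+Dox 3 and 0.04 without shEHD1+Dox 2). The table also lists 13 FABP5 pseudogenes, of which 7 had no count. FABP5P7 had counts equal to 12.5% to 14.6% of those of FABP5 in the same library, and it is uncertain how reads that fit both were assigned. The exons of FABP5 also share 4.20% of their bases with LNMICC on the other strand.

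Of the 6 genes in the fit, the groups did not overlap for 2 (CD36 and VLDLR) in the higher direction and for 1 (SCARB1) in the lower direction, against 19.9% and 19.4% of all tested genes. Since the set was chosen on this comparison, nothing is read from these counts. Over all tested genes, 473 (2.82%) were at least 2-fold higher or lower at an adjusted p under 0.05 (293 without shEHD1+Dox 3, 452 without shNTC+Dox 3 and 399 without shEHD1+Dox 2), and the median log2 fold change was 0.00.

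**Figure D2:**
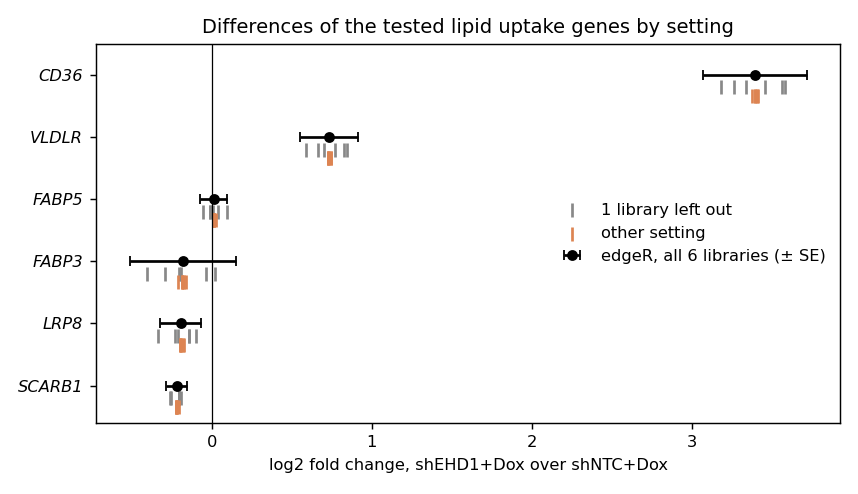
Log2 fold change (shEHD1+Dox over shNTC+Dox) of the 6 lipid uptake genes in the fit, with black points and bars for the edgeR value ± SE over 6 libraries, grey marks for fits with 1 library left out and orange marks for other settings. CD36 lies at 3.40, with marks between 3.18 and 3.59, VLDLR at 0.73, and the other 4 genes between -0.22 and 0.01.

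Levels between genes were compared per kilobase of annotated exon. In shNTC+Dox the order of CPM per kb was CD36 (0.0318 ± 0.0100), VLDLR (0.319 ± 0.0600), FABP3 (0.777 ± 0.140), LRP8 (3.47 ± 0.632), SCARB1 (8.22 ± 0.309) and FABP5 (61.3 ± 6.44), each with its SD over 3 libraries and with no overlap between neighbours. In shEHD1+Dox the order was the same, with CD36 at 0.343 ± 0.0768, VLDLR at 0.532 ± 0.0637, FABP3 at 0.680 ± 0.206, LRP8 at 3.03 ± 0.201, SCARB1 at 7.06 ± 0.348 and FABP5 at 61.8 ± 2.12 CPM per kb. There the libraries of VLDLR (0.460 to 0.582) and FABP3 (0.468 to 0.879) overlapped, and these neighbours traded places when the length of the longest transcript was used (0.953 for VLDLR and 0.867 for FABP3). CD36 remained the lowest of the 6 genes in the knockdown libraries, with 0.255 to 0.401 CPM per kb. Among the tested genes with an exon length, 96.5% had a lower mean CPM per kb than FABP5 in shNTC+Dox and 96.7% in shEHD1+Dox.

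**Figure D3:**
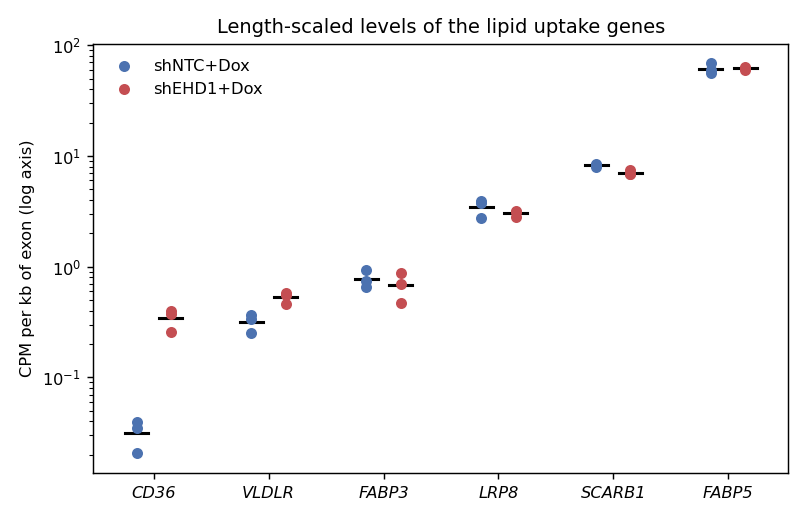
CPM per kb of annotated exon (log axis) of the 6 lipid uptake genes in the fit, with 1 point for each library and a bar at the mean of each group (n = 3). CD36 moves from a mean of 0.0318 to 0.343 and stays the lowest gene, while FABP5 stays the highest, with means of 61.3 and 61.8.

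Over the 6 libraries, Pearson's r of log2 CPM with CD36 was 0.900 for VLDLR, -0.955 for SCARB1, -0.304 for LRP8, -0.308 for FABP3 and 0.0092 for FABP5. These describe 6 points that fall into the groups compared, and carry no test. The genes with the pattern most like CD36 among 13160 tested genes with a symbol and a mean of at least 1 CPM were LRRC41 (r = 0.998), ZNF318 (0.998), ZDHHC4 (0.997), MKRN2 (0.997) and DYRK4 (0.997), each over 6 libraries. Their own differences were far smaller than that of CD36, from a log2 fold change of 0.27 with an SE of 0.06 for LRRC41 to 0.79 with an SE of 0.13 for DYRK4. ZDHHC4 is also a member of the list of fatty acid transport genes below, as a palmitoyltransferase that modifies CD36.

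The surroundings of CD36 on chromosome 7 were mostly silent. Of 25 genes annotated within 1000000 bases of it, 24 were in the table, 21 had at most 3 counts in every library and 3 were tested. GNAT3, which lies within the span of CD36 on the other strand, was listed at 0 counts throughout. SEMA3C, a secreted guidance factor, was at 89.9 ± 2.91 CPM and 81.1 ± 5.28 CPM (log2 fold change -0.15, SE 0.07, adjusted p = 0.192). GNAI1, an inhibitory G protein subunit, was at 51.2 ± 5.31 CPM and 60.9 ± 2.32 CPM (0.25, SE 0.09, adjusted p = 0.0874). MAGI2, a scaffold protein, was at 3.14 ± 0.480 CPM and 3.10 ± 0.582 CPM (-0.02, SE 0.22, adjusted p = 0.972). None of the 3 tested neighbours passed the test, although the direction of SEMA3C and GNAI1 differed.

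Genes of other cell types known for CD36 were read to see what else moved with it. Of 11 endothelial markers, 4 were tested and 0 passed, the most abundant was EGFL7 (18.3 and 20.8 CPM), and VWF, TEK, TIE1, KDR and ROBO4 were at 0 counts. Of 11 macrophage and monocyte markers, 1 was tested (AIF1, at 0.296 and 0.491 CPM), 0 passed, and CD163 and TYROBP were at 0. Of 9 adipocyte markers, 2 were tested and 0 passed, the most abundant was CFD (1.39 and 1.52 CPM), and ADIPOQ, FABP4, CIDEC, PCK1 and AQP7 were at 0. Of 9 megakaryocyte and platelet markers, 2 were tested and 0 passed, the most abundant was GP1BA (1.91 and 1.28 CPM), and PPBP, GP9 and GP6 were at 0. In these 4 lists the count at an unadjusted p under 0.05 was 0, 0, 0 and 1 (GP1BA, lower), where 16% of all tested genes were higher and 16.3% lower at that threshold, and DESeq2 called 0 in each. Without shNTC+Dox 3, 1 endothelial marker (EMCN, named after its values were seen) was higher at an adjusted p under 0.05. The part of these cell types in the CD36 result was not tested.

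The 9 adipocyte markers together came to 2.64 to 3.31 CPM in shNTC+Dox and 2.67 to 4.14 CPM in shEHD1+Dox, and the 11 macrophage markers to 0.684 to 1.99 CPM and 0.983 to 1.26 CPM. The 11 endothelial markers came to 32.1 to 41.6 CPM and 35.8 to 42.3 CPM, and the 9 megakaryocyte markers to 2.19 to 3.32 CPM and 1.80 to 2.35 CPM, so that the sums of these 4 lists overlapped between the groups. The endothelial sum, made up mostly of EGFL7 and EMCN, was thus above the level of CD36 in every library. Striated muscle was the exception, with a sum of 29.5, 26.1 and 21.3 CPM in shNTC+Dox and of 15.6, 13.4 and 16.8 CPM in shEHD1+Dox, opposite in direction to CD36. Of its 11 markers, 7 (MYH1, MYH2, MYOG, MYOD1, DES, TNNT3 and MB) were at 0 counts, and the 1 tested gene, the giant sarcomere protein gene TTN, fell from 25.4 ± 4.08 CPM to 15.2 ± 1.59 CPM (log2 fold change -0.75, SE 0.14, adjusted p = 0.00787). The part of TTN in the CD36 result was not tested. All 12 Ewing sarcoma markers were expressed, with the cyclin gene CCND1 highest (1381 ± 78.5 CPM and 1186 ± 107 CPM, adjusted p = 0.117). Of these 12, BCL11B, STEAP1 and PAX7 were lower (25.0%, against 8.75% of all tested genes) and CD99 was higher (8.33%, against 8.59%) at an adjusted p under 0.05, with log2 fold changes of -0.75, -0.43, -0.38 and 0.33. DESeq2 called 6 of the 12 lower, adding CCND1, NKX2-2 and PPP1R1A to these 3, and 1 higher. Without shNTC+Dox 3, edgeR called 2 higher and 4 lower, the latter being BCL11B, PAX7, PPP1R1A and STEAP1. The call of PAX7 was lost without shEHD1+Dox 1 (adjusted p = 0.0521), and that of CD99 without shNTC+Dox 1 or 2 and without shEHD1+Dox 1 or 3 (highest adjusted p = 0.117).

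The other genes of lipid uptake and handling were taken from 10 lists of 277 genes in all, of which 204 were tested. At an adjusted p under 0.05 (edgeR quasi-likelihood test), 37 of the 204 (18.1%) were higher and 10 (4.90%) were lower after knockdown, where 8.59% and 8.75% of all tested genes were, and the median log2 fold change was 0.05, against 0.00 over all tested genes. The lists were written with earlier results of these data known, so these shares describe the lists and carry no test. The share of each list is given below, to be set against these 8.59% higher and 8.75% lower. Of these 47 genes, 4 reached 2-fold. The count of 47 was 30 without shNTC+Dox 1, 24 without shEHD1+Dox 1, 24 without shEHD1+Dox 3 and 31 with a replicate block (each library left out alone, here and below), and it was 63 without shNTC+Dox 3 and 34 without shEHD1+Dox 2. The split into higher and lower genes moved as well. Without shNTC+Dox 3, lower genes numbered 4 in place of 1 for fatty acid oxidation and 5 in place of 3 for nuclear receptors. They numbered 3 in place of 4 for the reelin pathway and 2 in both settings for lipid droplets. Of 34 genes that the naming rule gave and that passed, the call of 21 held in all 12 alternatives run, and these are described with values below. The other 13 lost the call in at least 1 alternative. Of these, SCARB2, LIPA, ACSL4, ZDHHC4, HILPDA, AGPAT5 and ECI1 are named, without levels. Thus all 3 genes of these 13 that were lower are named, and only some of the 10 that were higher. CAV1 and ITGB1, the most abundant members of their lists, are given although they did not pass. The most abundant members of other lists that did not pass were DBI, SEL1L, AGPAT3, HADHA, SREBF2 and CFL1. Their log2 fold changes were -0.14, 0.26, -0.04, -0.20, 0.08 and -0.05, and their levels are not given. In 6 lists 0 genes were lower, namely those of receptors, transporters, lipid binding proteins, lipases, apolipoproteins and CD36 partners. There the counts of lower genes at an unadjusted p under 0.05 were 1, 2, 0, 0, 3 and 1 (16.3% of all tested genes were lower at that threshold), those at an adjusted p under 0.05 without shNTC+Dox 3 were 2, 0, 2, 0, 1 and 1, and DESeq2 called 0 lower in each. Without shEHD1+Dox 2, 1 transporter gene was called lower.

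Among 22 tested lipoprotein and scavenger receptors and their cofactors, 7 rose (31.8%), 0 fell and the median log2 fold change was 0.25. LRP12, a lipoprotein receptor family gene, rose from 30.5 ± 1.43 to 41.0 ± 2.41 CPM (log2 fold change 0.42, SE 0.08, adjusted p = 0.00829), and the scavenger receptor gene SCARF2 rose from 4.41 ± 1.20 to 9.23 ± 1.27 CPM (1.07, SE 0.21, adjusted p = 0.0106). The count of 7 was 4 without shNTC+Dox 1, 3 without shEHD1+Dox 1, 3 without shEHD1+Dox 2 and 2 without shEHD1+Dox 3. Among 15 tested fatty acid transporters and acyl-CoA synthetases, 3 rose (20.0%, and 1 gene without shEHD1+Dox 1 or without shEHD1+Dox 3), 0 fell and the median was 0.21. ACSL1, which activates long-chain fatty acids after their entry, rose from 22.2 ± 1.59 to 37.4 ± 1.39 CPM (0.75, SE 0.09, adjusted p = 9.6e-04). ZDHHC4 and ACSL4, a relative of ACSL1, also passed but lost the call without shEHD1+Dox 1 and without shEHD1+Dox 3, and ACSL4 also without shNTC+Dox 1 and without shEHD1+Dox 2 (highest adjusted p 0.057 for ZDHHC4 and 0.122 for ACSL4). CAV1, the caveolar coat protein gene and the most abundant member of that list, was at 941 ± 102 CPM and 823 ± 90.1 CPM (adjusted p = 0.242).

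Past the entry step, 4 lists were read. Of 7 tested lipid binding proteins other than FABP3 and FABP5, 2 rose (28.6%) and 0 fell, among them the Golgi acyl-CoA binding protein gene ACBD3 (78.2 ± 3.35 to 102 ± 7.66 CPM, 0.38, SE 0.08, adjusted p = 0.0117). The count of 2 was 1 when any library other than shNTC+Dox 3 was left out. Of 15 tested lipases and their regulators, 1 rose (6.67%) and 0 fell (LIPA, the lysosomal acid lipase gene, adjusted p = 0.0497, lost in 6 of 12 alternatives, among them those without shNTC+Dox 1 or any of the shEHD1+Dox libraries), and 3 rose without shNTC+Dox 3. Of 19 tested genes of lipid droplets and triglyceride synthesis, 2 rose and 2 fell (10.5% each). The count of lower genes was 0 when any of the shEHD1+Dox libraries was left out and with a replicate block, and 1 without shNTC+Dox 1 or 2, and that of higher genes was 1 with the block and without shNTC+Dox 1, shEHD1+Dox 1 or shEHD1+Dox 3. The lower genes were HILPDA, an inhibitor of droplet lipolysis (adjusted p = 0.0185, lost in 6 of 12 alternatives), and AGPAT5, an acyltransferase gene of phospholipid synthesis (adjusted p = 0.036, lost in 4). BSCL2, which encodes the droplet protein seipin, rose from 76.4 ± 1.89 to 106 ± 6.63 CPM (0.48, SE 0.07, adjusted p = 0.00289), with 27.5% of its exon bases shared with other genes. Of 33 tested genes of fatty acid oxidation, 4 rose (12.1%) and 1 fell (3.03%), the latter being the mitochondrial isomerase gene ECI1 (adjusted p = 0.0274, lost in 7 of 12 alternatives). The counts were 4 and 4 without shNTC+Dox 3, 2 and 0 without shNTC+Dox 1, shEHD1+Dox 1 or shEHD1+Dox 3 and with a replicate block, and 3 and 0 without shNTC+Dox 2 or shEHD1+Dox 2. The peroxisomal enzyme gene EHHADH rose from 10.3 ± 1.73 to 20.0 ± 2.71 CPM (0.95, SE 0.15, adjusted p = 0.00443) and CPT1A, the carnitine transferase that admits fatty acids to mitochondria, from 77.8 ± 2.64 to 98.7 ± 0.666 CPM (0.34, SE 0.06, adjusted p = 0.00732). The medians of the droplet and oxidation lists were -0.04 and -0.0041.

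Nuclear receptors that sense lipids and their cofactors include known regulators of CD36. Of the 27 tested, 3 rose (11.1%, and 1 gene without shEHD1+Dox 1 or without shEHD1+Dox 3) and 3 fell (11.1%, and 5 genes without shNTC+Dox 3), and PPARG was listed at 0 counts in all 6 libraries. NR1H3, which encodes the oxysterol receptor LXR alpha, rose from 6.49 ± 0.971 to 12.3 ± 2.01 CPM (0.92, SE 0.17, adjusted p = 0.00771). Its partner RXRA fell from 63.3 ± 8.07 to 42.8 ± 3.62 CPM (-0.56, SE 0.11, adjusted p = 0.00824), as did the coactivator PPARGC1B from 31.3 ± 0.559 to 19.5 ± 2.56 CPM (-0.68, SE 0.11, adjusted p = 0.00375). The orphan receptor ESRRA fell from 42.4 ± 2.22 to 31.3 ± 1.53 CPM (-0.44, SE 0.08, adjusted p = 0.00684). PPARG is named for its role in the control of CD36, and PPARD as its relative, both after their values were seen. PPARD did not pass, but it was lower at an unadjusted p under 0.05 (edgeR). Without shNTC+Dox 3 it was lower at an adjusted p under 0.05, and DESeq2 on all libraries did not call it.

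Of 17 tested apolipoproteins and efflux genes, 3 rose (17.6%) and 0 fell (median 0.28). These were APOL6 (6.32 ± 0.842 to 13.6 ± 0.540 CPM, adjusted p = 0.00134) and APOL2 (14.3 ± 1.87 to 21.9 ± 0.198 CPM, adjusted p = 0.00826), intracellular members of the apolipoprotein L family, and PLTP (86.8 ± 2.77 to 113 ± 1.15 CPM, adjusted p = 0.00462), a transfer protein of plasma phospholipids. Of 24 tested ligands and signalling partners of CD36, 6 rose (25.0%) and 0 fell (median 0.17). The count of 6 was 3 without shNTC+Dox 1, shEHD1+Dox 1 or shEHD1+Dox 3 and with a replicate block. The Src family kinase gene YES1 rose from 159 ± 14.2 to 256 ± 13.7 CPM (0.68, SE 0.08, adjusted p = 0.00122), the integrin gene ITGA6 from 0.991 ± 0.362 to 3.15 ± 0.481 CPM (1.65, SE 0.30, adjusted p = 0.00698) and the calcium sensor gene STIM1 from 64.4 ± 3.88 to 84.5 ± 4.22 CPM (0.39, SE 0.07, adjusted p = 0.0089). ITGB1, the most abundant member, was at 400 ± 49.1 and 423 ± 14.1 CPM (adjusted p = 0.594).

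The reelin pathway, which signals through VLDLR and LRP8, moved in both directions, with 6 of 25 tested genes higher (24.0%), 4 lower (16.0%) and a median log2 fold change of 0.01. Without shEHD1+Dox 1, 3 were higher and 3 lower. RELN, the ligand, was not tested for lack of counts. DAB1, the adaptor that binds the tails of VLDLR and LRP8, fell from 142 ± 7.17 to 100 ± 4.84 CPM (-0.50, SE 0.07, adjusted p = 0.00238), and PAFAH1B1 fell from 115 ± 6.27 to 83.4 ± 6.47 CPM (-0.47, SE 0.08, adjusted p = 0.00549). SOCS7, which helps to clear phosphorylated DAB1, rose from 27.9 ± 1.38 to 41.1 ± 0.883 CPM (0.56, SE 0.07, adjusted p = 0.00198). SELENOP, a selenium carrier that LRP8 takes up, fell from 26.3 ± 1.20 to 11.6 ± 0.162 CPM (-1.18, SE 0.09, adjusted p = 1.97e-04), with 37.4% of its exon bases shared with other genes.

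**Figure D4:**
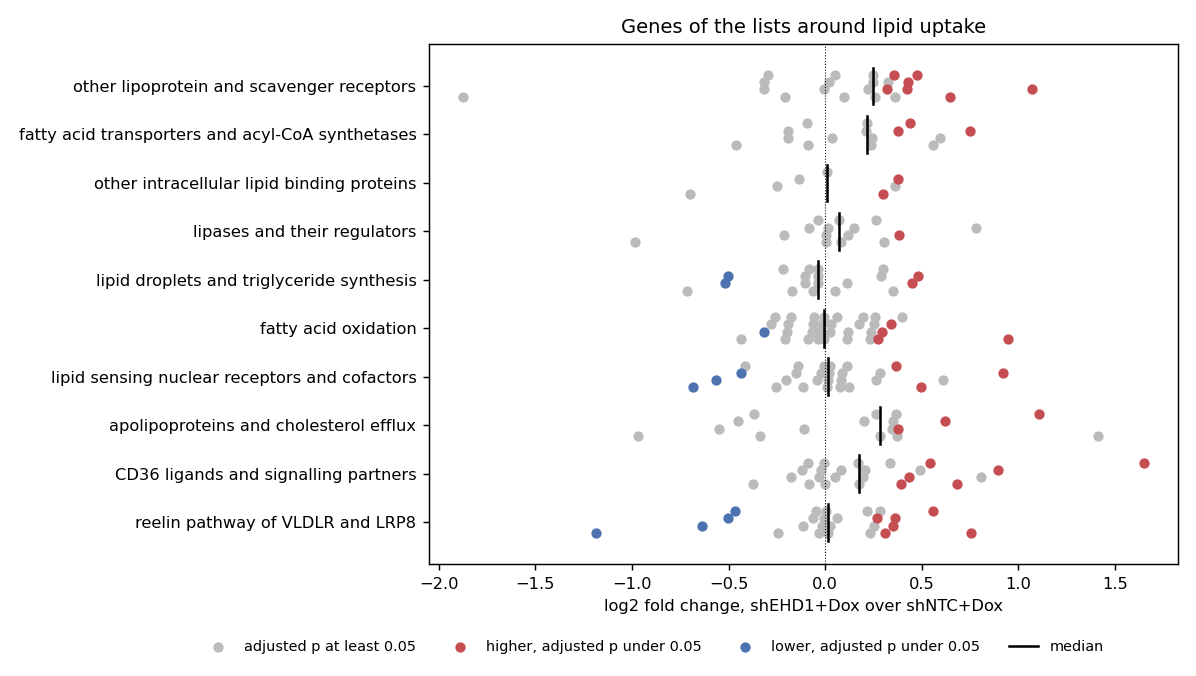
Log2 fold change (shEHD1+Dox over shNTC+Dox) of the 204 tested genes of the 10 lists, with 1 point for each gene, black bars at the median of each list, and red or blue points for genes higher or lower at an adjusted p under 0.05. Points lie on both sides of 0 in every list. The called genes of the receptor, transporter, lipid binding, lipase, apolipoprotein and CD36 partner lists all lie on the higher side. All of these but the lipase list held lower calls in at least 1 fit with 1 library left out.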

How the data were processed

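RNA of 6 libraries was prepared with an unstranded kit and sequenced as paired reads. The study's methods name hisat2 on hg38 with Ensembl genes, StringTie and DESeq2, whereas the submitters' processing notes name STAR 2.7.3a. The deposited values are whole-number counts per gene, not normalized, and how they were derived, and how reads that fit several genes were assigned, is not given in the sources used here, so a low count need not be a tally of reads. Groups and replicate numbers came from the labels. Same-numbered libraries did not deviate together (correlations 0.0720, -0.0593 and -0.0448) and were not treated as pairs.

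Counts were fitted in R 4.3.3 with edgeR 4.0.16 (TMM, robust glmQLFit, glmQLFTest, Benjamini-Hochberg) over the 16785 genes that reached 10 counts in 3 or more libraries, and calls used an adjusted p under 0.05, with 2-fold where stated. The SE of a log2 fold change was worked back from the test, as its absolute value divided by the square root of the F statistic. Log2 CPM for correlations used a prior count of 2. Alternatives were DESeq2 1.42.0, other filters, a replicate block and each library left out. Scripts were tested on simulated data. Coordinates and exon lengths came from GENCODE on hg38 and matched 60357 identifiers, and 29676 genes had no count.

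The genes and lists were chosen with earlier results of these data known. The naming rule took the 7 genes and EHD1, up to 4 members of each list with the smallest adjusted p among those that passed and its most abundant member, the 5 genes most like CD36, and tested neighbours of CD36.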

Additional observations from a re-analysis of the deposited data

How the results depend on the processing

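No log2 fold change of the 6 lipid uptake genes moved by more than the spread between replicates in the alternatives run. That of CD36 ranged from 3.18 (without shNTC+Dox 3) to 3.59 (without shNTC+Dox 2) and could not be fitted where 10 counts were required in every library, since shNTC+Dox 3 has 5. With a replicate block, which the numbering does not justify, it was 3.38, that of VLDLR was 0.75, 365 genes were called in place of 473 and 31 list genes passed in place of 47. With 1 library left out, 293 to 452 genes were called and 24 to 63 list genes passed. With the DESeq2 Wald test, 466 and 54 were counted. The 56 other genes named by the rule, apart from LRRC41, ZNF318, MKRN2 and DYRK4, had 670 alternative values. Of these, 598 were counted as unchanged, 65 lost the call and 7 gained it. For genes that had not passed, a change of sign was also counted as unchanged. Depth limits CD36 in control cells (5 to 12 counts), FABP3 (16 to 35 counts) and LPL (at the floor).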

Other observations

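The genes below were named after their values were seen. LRP1, a large endocytic receptor related to VLDLR and LRP8, was also lowest in shNTC+Dox 3, at 138, 148 and 85.0 CPM in shNTC+Dox libraries 1 to 3 and at 144, 158 and 139 CPM in shEHD1+Dox. ANGPTL4, a secreted inhibitor of LPL, was instead highest among control libraries in shNTC+Dox 3, at 1.10, 1.81 and 3.36 CPM against 2.84, 3.72 and 4.14 CPM in shEHD1+Dox. MSR1, a macrophage scavenger receptor gene, had 24, 27 and 16 counts in shNTC+Dox and 8, 11 and 0 counts in shEHD1+Dox, the opposite direction to CD36. It was lower at an unadjusted p under 0.05 (edgeR) but did not pass at an adjusted p under 0.05. Of the 22 tested genes of its list, 7 passed as higher and 0 as lower.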
